A study of Mus musculus with 6 samples.

Results

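The genes described are those of the proteasome, taken from the gene table by symbol: every symbol that begins with Psma, Psmb, Psmc, Psmd, Psme, Psmf or Psmg followed by a digit, without the pseudogenes whose symbols contain "-ps". This gave 50 of 55367 symbols, and all 50 matched a protein-coding gene of the GENCODE M21 annotation. They comprise 19 genes of the core particle (8 alpha, 11 beta), 21 of the regulatory particle (7 ATPase-type, 14 non-ATPase), 5 of activators, and 5 of the inhibitor and the assembly chaperones. Psmc3ip was caught by its symbol only: it encodes a recombination cofactor named for an interaction with Psmc3, and it is no proteasome subunit.

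RNA was measured by Smart-seq2, a full-length method that amplifies cDNA without molecular identifiers, in 6 libraries of tdTomato-positive cells, labelled as neurons, sorted from the dentate gyrus of the hippocampus. All mice carried TRAP2;Ai9, that is a tamoxifen-inducible Cre at the activity gene Fos (Fos-iCreERT2) and a Cre-dependent tdTomato reporter (Rosa26-LSL-tdTomato), and all had been through learned helplessness (LH+), a stress procedure after which animals stop trying to escape. The 3 Run libraries came from mice with 28 days of voluntary running and the 3 NR libraries from mice labelled Non Run. The reporter was switched on at learned helplessness (LH-TRAPed). Because Cre is driven from Fos, a cell of any type in which Fos was on at that time can enter the sort. The design text speaks of single-cell sequencing, but each group has 3 libraries. The mice's age, the number of animals and the number of cells behind each library are not given in the sources used here, so every p-value below rests on library-to-library spread alone, and this spread may be technical.

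The proteasome is the barrel-shaped protease that degrades proteins tagged with ubiquitin. In the core particle, rings of alpha subunits gate the entrance and rings of beta subunits hold the protease sites. The regulatory particle binds ubiquitin chains, removes them, and unfolds the substrate with a ring of ATPases. Other caps open the core without ubiquitin, and dedicated chaperones build it. Neurons need the complex to turn over synaptic proteins, and interferon makes many cells, microglia among them, exchange the protease subunits for inducible ones.

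Values are FPKM, fragments scaled to transcript length and to the mapped fragments of the library, so levels can be compared between genes. They hold no read totals, and the depth of the libraries is unknown. Per library, 5426 to 7355 genes had at least 1 FPKM, and the FPKM summed to 473786 to 492021. A value of 0 can be a failed estimate, so a gene is said to be listed at 0. The labelled cell type was borne out only in part. Astrocyte markers summed above pan-neuronal ones in each library, though the lists hold different genes. Snap25, of the synaptic release machinery, lay between 169 and 454 FPKM in every library, but only 3 of 6 pan-neuronal markers reached 1 FPKM in all 6. Of immature granule neuron markers 3 of 7 did so, and of granule neuron markers 0 of 9. The 8 astrocyte markers summed to 2468 to 4647 in NR and 2648 to 5257 in Run. Endothelial markers summed to 783 to 2001 in NR and 774 to 1293 in Run, and mural cell markers to 489 to 1438 and 236 to 743. In such mixed material, fewer cells of a type and less RNA per cell cannot be told apart.

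Proteasome RNA was present in every library and in both groups. The 50 genes together held 0.768%, 0.872% and 0.777% of the summed FPKM in the NR libraries (replicates in order, as throughout), against 1.08%, 0.672% and 0.799% in the Run libraries. Run replicate 1 was the highest and Run replicate 2 the lowest, so the NR values lay inside the range of the Run values. Of the 50 genes, 34 to 41 had at least 1 FPKM in a given library. Over the libraries, 16 genes reached 1 FPKM in all 6, 27 in 3 to 5, 5 in 1 or 2, and 2 in none. Of the 300 values, 67 were listed at 0 and a further 13 lay between 0 and 1.

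**Figure D1:**
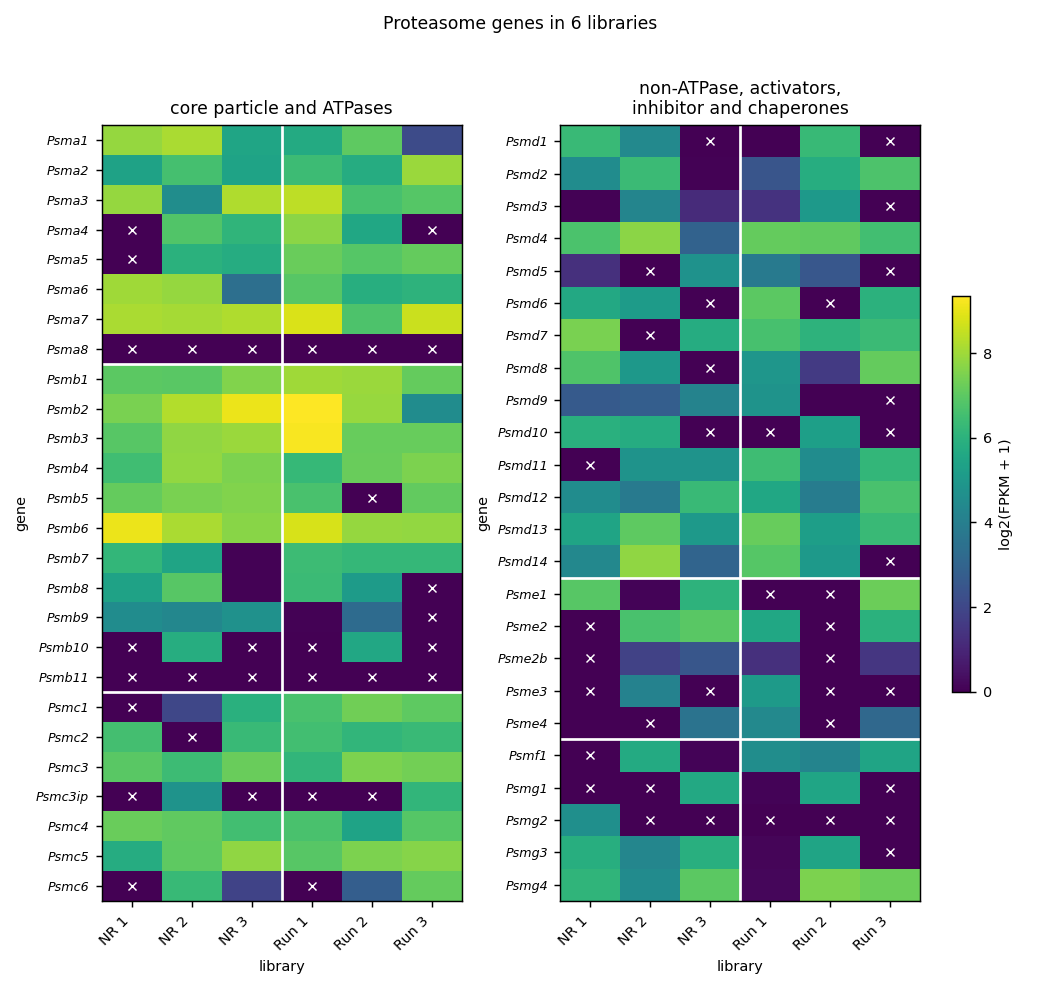
Heat map of log2(FPKM + 1) for the 50 genes (rows, grouped by role with white lines between groups) in the 3 NR and 3 Run libraries (columns); a white cross marks a value listed at 0. Of the 50 genes, 16 were at 1 FPKM or more in all 6 libraries. Every group held genes listed at 0 in some library: 3 of 8 alpha, 5 of 11 beta and 4 of 7 ATPase genes. The same was true of 10 of 14 non-ATPase, 5 of 5 activator and 4 of 5 inhibitor and chaperone genes.

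Levels differed between the parts of the complex. The 14 constitutive core genes (Psma1 to Psma7 and Psmb1 to Psmb7) had mean levels from 57.8 to 321 FPKM with a median of 137, and 10 of them reached 1 FPKM in all 6 libraries. The median of the mean levels was 89.9 FPKM for the 6 ATPase genes without Psmc3ip, 45.3 for the 14 non-ATPase genes, 8.27 for the 5 activator genes and 22.5 for the 5 inhibitor and chaperone genes. These medians are given as a description with no test, since genes are not replicates. Across the 47 genes with any value, inhibitor and chaperones included and Psmc3ip left out, mean FPKM and the annotated length of the longest transcript had a Spearman rho of -0.38. For mean FPKM and the number of libraries with at least 1 FPKM the rho was 0.86. Both of these come from the same 6 values of a gene. A value of 0 lowers both, so this rho was partly fixed in advance. All points share the same 6 libraries.

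Genes of higher level were found in more libraries, in the proteasome as elsewhere. Among genes with a mean of 100 to 200 FPKM, 9 of 10 proteasome genes and 82.6% of all 368 genes were at 1 FPKM or more in all 6 libraries. From 200 to 1000 FPKM these were 4 of 4 proteasome genes and 97.5% of 282 genes. Between 50 and 100 FPKM the shares were 2 of 13 proteasome genes and 48.2% of 737 genes. The spread between libraries of a group was also larger: at a mean log2 level of 5 to 6 the median residual SD was 2.64 for 7 proteasome genes and 1.55 for 515 genes, and at 7 to 8 it was 0.850 for 6 proteasome genes and 0.709 for 223. No test was made of these differences.

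**Figure D2:**
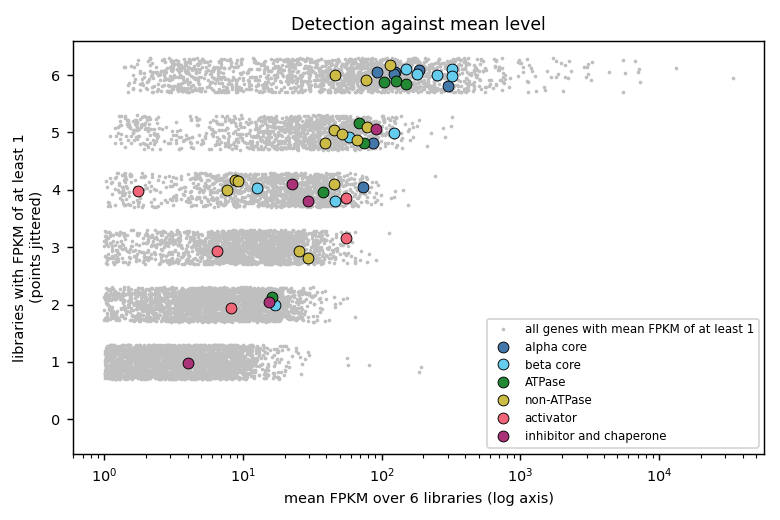
Number of libraries with FPKM of at least 1 (y axis, points spread vertically for visibility) against mean FPKM over the 6 libraries (x axis, log scale), for proteasome genes by role (large points) and all genes with a mean of at least 1 (grey). Proteasome genes with means above 100 sit almost all in the row of 6 libraries. No activator, inhibitor or chaperone gene is in that row, and their highest means are 55.6 (Psme1) and 90.7 (Psmg4). A value of 0 lowers both axes.

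The alpha subunits, which form the outer rings and the gate of the core, included steady and unsteady genes. Psma7 (chromosome 2, 180036374 to 180042433) was the most abundant, with 283, 270.2 and 302 FPKM in the NR libraries, against 451, 104 and 391 in the Run libraries. Psma3 had 234, 22.9 and 303 in the NR libraries, against 344, 96.6 and 116 in the Run libraries. The NR values of Psma7 lay inside its Run range, the groups of Psma3 overlapped, and the log2 differences (log2(FPKM + 1), Run minus NR) were -0.11 ± 0.61 and 0.40 ± 1.08 (SE).

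Psma5 (chromosome 3, 108256926 to 108279974) was listed at 0 in NR replicate 1 and had 61.8 and 54.8 FPKM in the other NR libraries. All 3 Run libraries were above these, at 147, 117 and 139.9. The log2 difference was 3.15 ± 1.63 (SE; unadjusted p = 0.0943 and adjusted p = 0.978 by limma) and 1.19 without NR replicate 1, the library at 0. Of the 50-base windows of Psma5 transcripts, 49.1% also occur in transcripts of other genes, so reads could not be assigned to it with certainty. Its pseudogene Psma5-ps, which was left out, had 0, 0.280 and 0.725 FPKM in the NR libraries, against 1.30, 1.95 and 1.69 in the Run libraries. Psma1 went the other way, with 231, 285 and 44.3 FPKM in the NR libraries, against 52.1, 129 and 3.39 in the Run libraries, and its groups overlapped (log2 difference -2.21 ± 1.40 SE). That difference was -0.79 without Run replicate 3 and -3.24 without Run replicate 2. Psma2 had 40.7 to 243 FPKM over the 6 libraries and Psma6 9.67 to 259. Psma4 was listed at 0 in NR replicate 1 and Run replicate 3 and had 46.7 to 212 in the others. Psma8, the alpha subunit of the testis, was listed at 0 in all 6.

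Of the beta subunits that only build the ring, Psmb1, Psmb2, Psmb3 and Psmb4 each had values in every library. Psmb2 (chromosome 4, 126677630 to 126709714) had the highest mean of all 50 genes, with 176, 307 and 534 FPKM in the NR libraries, against 649.9, 238 and 22.6 in the Run libraries. Both extremes were Run libraries, replicate 1 the highest and replicate 3 the lowest. Psmb1 was among the steadiest, with 127, 122 and 191 in the NR libraries, against 259, 247 and 139 in the Run libraries, a log2 difference of 0.53 ± 0.48, which is the smallest SE of the 43 tested genes. Psmb3 had 144 to 613 FPKM in Run and 120.3 to 245 in NR, and Psmb4 75.4 to 182 and 88.3 to 229. Apart from these 4 genes, Psmb11, the beta subunit of the thymus, was listed at 0 throughout.

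Summed, the 3 constitutive protease subunits exceeded the 3 inducible ones in each library, with 398 to 743 FPKM against 25.4 to 194 in NR and 309 to 617 against 0 to 89.9 in Run. Gene by gene this did not always hold: Psmb10 was above Psmb7 in NR replicate 2, and Psmb8 above Psmb5, listed at 0, in Run replicate 2. Psmb6 (chromosome 11, 70525367 to 70527858), whose site cuts after acidic residues, had 533, 282 and 207 FPKM in the NR libraries, against 434, 234 and 229 in the Run libraries. The groups overlapped, with a log2 difference of -0.14 ± 0.50 (SE). Psmb5 (chromosome 14, 54614119 to 54618022), which carries the chymotrypsin-like site that proteasome drugs block, had 139, 176 and 191 in the NR libraries, against 99.3, 0 and 135 in the Run libraries. The Run values were all lower, but the gap was narrow, with NR replicate 1 at 1.03 times Run replicate 3. Psmb7 (chromosome 2, 38588036 to 38644087), with the trypsin-like site, had 71.5, 42.9 and 0.0261 in the NR libraries, against 83.4, 74.6 and 74.1 in the Run libraries. Here the Run values were all higher, by 1.04 times at the narrowest.

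The log2 differences were -2.82 ± 1.84 for Psmb5 and 2.40 ± 1.64 for Psmb7 (SE; adjusted p = 0.978 by limma for each). Each rested on 1 library: without Run replicate 2 the difference of Psmb5 was -0.53, and without NR replicate 3 that of Psmb7 was 0.47. Of the 50-base windows of Psmb5, 54.1% also occur in other genes, most in the pseudogene Gm3375 on chromosome 7, whose highest value was 13.7 FPKM. None of the windows of Psmb7 do.

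The inducible protease subunits replace the constitutive ones in cells exposed to interferon and in immune cells, Psmb9 in place of Psmb6, Psmb10 in place of Psmb7 and Psmb8 in place of Psmb5. Psmb9 (chromosome 17, 34181987 to 34187764) had 22.5, 18.9 and 25.3 FPKM in the NR libraries, against 0.0469, 8.68 and 0 in the Run libraries. Every NR library was above every Run library, the nearest by 2.17 times, and none of its 50-base windows occur in another gene. The log2 difference was -3.41 ± 1.38 (SE), with an unadjusted p = 0.0421 and an adjusted p = 0.965 by limma. Leaving out 1 library at a time gave -4.50 to -2.86, with an unadjusted p under 0.05 in 1 of the 6 fits.

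Psmb8, whose gene is separated from that of Psmb9 by 9956 bases, did not share this pattern. It had 41.1, 119.8 and 0.0466 FPKM in the NR libraries, against 81.5, 33.8 and 0 in the Run libraries, with overlapping groups and a log2 difference of -0.30 ± 2.36 (SE). Both genes had at least 1 FPKM in 3 libraries, Psmb8 alone in 1, Psmb9 alone in 1, and neither in 1. Psmb10 had 55.0 in NR replicate 2 and 47.4 in Run replicate 2 and was listed at 0 in the other 4 libraries, so it was not tested. The 3 inducible genes together made up 7.89%, 27.9% and 5.99% of the FPKM of all 6 protease subunits in NR replicates 1 to 3 and 11.7%, 22.6% and 0% in Run.

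Microglia express the inducible subunits, and their 8 markers summed to 55.0, 404 and 455 FPKM in the NR libraries, against 179, 895 and 322 in the Run libraries, 1 of the 8 (C1qc) reached 1 FPKM in all 6 libraries, and P2ry12 and Tmem119 were listed at 0 in all but Run replicate 2. Beside these sums, Psmb9 had 22.5, 18.9 and 25.3 in the NR libraries, against 0.0469, 8.68 and 0 in the Run libraries. Ptprc, a marker of all leukocytes, exceeded 1 FPKM in the same libraries as Psmb10, at 1.69 in NR replicate 2 and 4.22 in Run replicate 2. Lyz2, another immune marker, had values in every library, with 23.6, 189 and 89.5 in NR, against 71.1, 302 and 251 in Run. Of the 6 markers of blood and other immune cells, 4 were listed at 0 throughout. The part of such cells in these values was not tested.

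**Figure D3:**
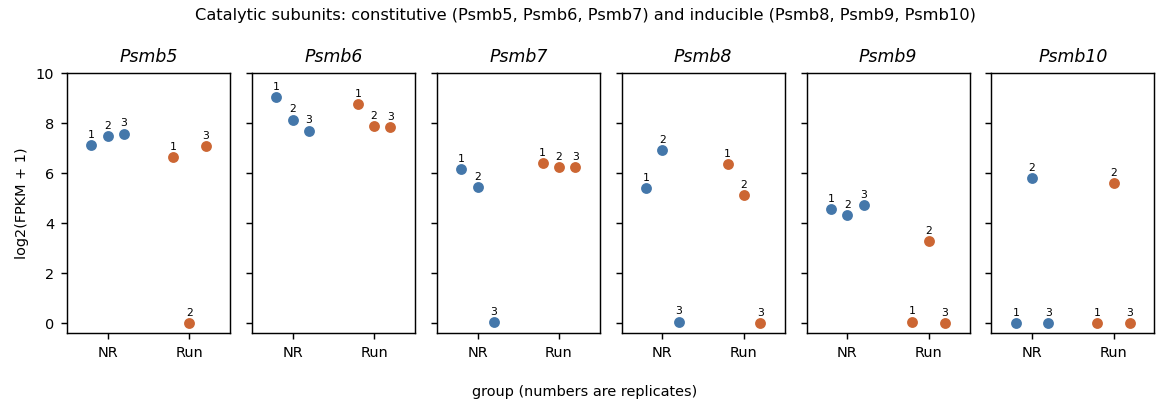
log2(FPKM + 1) of the 6 protease subunits in each library, NR in blue and Run in orange, with the replicate number above each point. Psmb6 is high in all 6 libraries, Psmb5 and Psmb7 each have 1 library near 0, and Psmb9 has its 3 NR points together near 4.5 and its Run points at 3.3 and near 0.

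The promoters of these genes were searched for elements known to control the proteasome: the antioxidant response element TGACNNNGC, bound by Nfe2l1 and Nfe2l2, the CCAAT box, the interferon-stimulated response element (GAAA, any 2 bases, GAAA) and the interferon gamma activated site TTCNNNGAA. Both strands of the 250 bases before each RefSeq gene start were used (build GRCm38.p6, the sequence of mm10), which covered 42 of the 50 genes in 45 windows. The stretches below are the matches found in the protease subunit genes Psmb5 to Psmb10, shown because these genes do the cutting, and in Psmc1. Psmc1 is an ATPase gene described further on, shown for the size of its difference. Matches in other genes, Psmb11 among them, are not printed. Psmb7 had no window and was not searched, and Psmb10 and Psma5 had no match. The stretches of Psmb8 and Psmb9 lie inside the GENCODE spans of these genes, because the RefSeq starts used here are further downstream than the outermost GENCODE ends. They are written 5′ to 3′ on the strand of the gene, with the matching bases in capitals and the surrounding bases in lower case. A CCAAT box on the opposite strand reads ATTGG.
Psmb5, antioxidant response element, chr14:54618024-54618052, minus strand: cgtgaagttgTGACGTCGCggcgttgcca
Psmb6, antioxidant response element, chr11:70525338-70525356, plus strand: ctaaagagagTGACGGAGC
Psmb8, interferon gamma activated site, chr17:34198088-34198116, plus strand: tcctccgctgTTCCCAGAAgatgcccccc
Psmb9, CCAAT box on the opposite strand, chr17:34187331-34187348, minus strand: gcagccgctgATTGGaaa
Psmc1, CCAAT box, chr12:100110017-100110041, plus strand: acatgtttaaCCAATccttgtacca

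The elements occurred in proteasome promoters at the following shares, given as a description with no test. The antioxidant response element matched in 5 of 42 proteasome genes (11.9%) and in 11.5% of 27025 genes, and the CCAAT box in 15 (35.7%) against 37.5%. The interferon-stimulated response element matched in 3 (7.14%) against 3.46%, in Psmb3, Psmd4 and Psmd9, and the interferon gamma activated site in 2 (4.76%) against 8.13%, in Psmb8 and Psmg1. No 2 matches to different elements overlapped. The median of the mean levels was 46.2 FPKM for the 5 genes with an antioxidant response element and 55.1 for the 37 without. A match describes letters in a window and shows no binding.

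The ATPase subunits pull the substrate into the core. Psmc5 (chromosome 11, 106256154 to 106263120) was the most abundant, with 54.5, 128 and 221 FPKM in the NR libraries, against 119, 182 and 201 in the Run libraries, followed by Psmc3 with 124, 84.3 and 146 in the NR libraries, against 70.0, 178 and 162 in the Run libraries. Both had values in every library and overlapping groups (log2 differences 0.49 ± 0.65 and 0.14 ± 0.59 SE). Psmc4 had 89.4 to 147 in NR and 41.9 to 116 in Run.

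Psmc1 (chromosome 12, 100110154 to 100123405) differed most between the groups of all tested proteasome genes. It had 0, 2.97 and 60.1 FPKM in the NR libraries, against 99.1, 161 and 128 in the Run libraries. The highest NR library was below the lowest Run library by 1.65 times. The SD in FPKM was similar, at 33.9 around a mean of 21.0 in NR and 30.9 around a mean of 129 in Run. The log2 difference was 4.36 ± 1.54 (SE), with an unadjusted p = 0.0258 and an adjusted p = 0.809 by limma. Leaving out 1 library at a time gave 3.04 to 6.003, the lowest without NR replicate 1 and the highest without NR replicate 3, with an unadjusted p under 0.05 in 1 of the 6 fits. Psmc1 shares 14.1% of its 50-base windows with other genes. Psmc2 was listed at 0 in NR replicate 2 and otherwise lay between 69.9 and 93.6 FPKM in all libraries, so that its log2 difference of 2.04 ± 1.77 (SE) was -0.11 without NR replicate 2. Psmc6 had 0, 77.3 and 2.66 in the NR libraries, against 0, 5.99 and 139.8 in the Run libraries. Psmc3ip had values in NR replicate 2 (26.8) and Run replicate 3 (70.3) only.

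The non-ATPase subunits recognise and process ubiquitin chains and scaffold the regulatory particle. Psmd4 (chromosome 3, 95032694 to 95042614), a ubiquitin receptor, had 103, 212 and 6.64 FPKM in the NR libraries, against 139, 133 and 90.1 in the Run libraries. The Run values lay inside the wider NR range, and the log2 difference was 1.11 ± 1.24 (SE). Psmd7, which pairs with the deubiquitinase subunit, had 174, 0 and 54.2 in the NR libraries, against 97.8, 65.0 and 81.6 in the Run libraries. Psmd11, of the lid, had 0, 26.7 and 26.7 in the NR libraries, against 86.0, 22.3 and 72.0 in the Run libraries, a log2 difference of 2.53 ± 1.55 (SE; unadjusted p = 0.146 and adjusted p = 0.978 by limma). Run replicate 2 kept its groups from separating, and the difference was 0.93 without NR replicate 1, the library at 0.

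The deubiquitinase subunit itself, Psmd14, had 19.4, 223 and 6.97 FPKM in the NR libraries, against 118, 32.6 and 0 in the Run libraries. The large scaffold subunits had 80.6, 19.97 and 0 in the NR libraries, against 0.0204, 77.4 and 0 in the Run libraries for Psmd1, and 22.4, 81.5 and 0.0502 in the NR libraries, against 4.58, 55.1 and 107 in the Run libraries for Psmd2. Neither followed the group. Psmd12 (13.4 to 100.03 FPKM) and Psmd13 (31.4 to 144) had values in all 6 libraries, and Psmd3 (highest value 31.3), Psmd6 (127) and Psmd8 (141) fell below 1 in 1 or 2. Of the chaperones that assemble the base of the regulatory particle, Psmd5, Psmd9 and Psmd10, the highest values were 26.3, 26.6 and 60.0 FPKM, and none of the 3 was found at 1 FPKM in all libraries.

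Among the activators, Psme1 (chromosome 14, 55578123 to 55581529) and Psme2 (chromosome 14, 55587441 to 55591113) are neighbours 5911 bases apart and encode the subunits of 1 joint ring that opens the core. Psme1 had 120.0, 0.0654 and 64.1 FPKM in the NR libraries, against 0, 0 and 149.5 in the Run libraries. Psme2 had 0, 101 and 122 in the NR libraries, against 46.4, 0 and 61.1 in the Run libraries. Only NR replicate 3 and Run replicate 3 had at least 1 FPKM of both partners. The log2 differences were -1.93 ± 2.67 and -0.70 ± 2.43 (SE), the first being the largest SE of the family. That of Psme1 was -4.06 without NR replicate 2 and -0.73 without Run replicate 1 or Run replicate 2. Psme2b, a near copy of Psme2 with 69.3% of its windows shared, stayed at 4.72 or below. Psme3, a nuclear activator, had 16.6 in NR replicate 2 and 33.1 in Run replicate 1 and 0 elsewhere. Psme4, the large activator of the nucleus, had 0.00654, 0 and 10.7 in the NR libraries, against 20.3, 0 and 8.02 in the Run libraries. In Run replicate 2 all 5 activator genes were listed at 0.

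Psmf1, which encodes an inhibitor of the core, had 0, 51.2 and 0.0643 FPKM in the NR libraries, against 23.0, 17.5 and 43.3 in the Run libraries. The highest value was an NR library, and the log2 difference was 2.82 ± 1.82 (SE; unadjusted p = 0.165 and adjusted p = 0.978 by limma). It was 4.71 without NR replicate 2 (unadjusted p = 0.0104 by limma, not past the adjusted threshold) and 1.86 without NR replicate 1. The assembly chaperones act as pairs, Psmg1 with Psmg2 and Psmg3 with Psmg4. Psmg4 (chromosome 13, 34162964 to 34178173) had 68.7, 21.7 and 125 in the NR libraries, against 0.132, 179 and 149 in the Run libraries, and Psmg3 57.0, 18.5 and 58.6 in the NR libraries, against 0.10006, 43.01 and 0 in the Run libraries. Psmg3 and Psmg4 were found together in 4 libraries, and both were near 0 in Run replicate 1. The log2 difference of Psmg3 was -3.48 ± 1.76 (SE; unadjusted p = 0.0888 and adjusted p = 0.978 by limma), the lowest of the 43 tested genes and -5.28 without Run replicate 2, and that of Psmg4 -0.90 ± 2.01. Psmg1 was found in NR replicate 3 (48.5) and Run replicate 2 (43.7), and Psmg2 in NR replicate 1 alone (24.2), so this pair was not found together in any library.

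The comparison of Run with NR asked whether proteasome genes differ in the labelled cells after running. None did by the test: of the 43 genes with at least 1 FPKM in at least 3 libraries, 0 reached an adjusted p under 0.05 by limma, where 0% of all 6155 tested genes did. The 7 untested genes were Psma8, Psmb10, Psmb11, Psmc3ip, Psme3, Psmg1 and Psmg2. Each tested gene had at least 1 FPKM in at least 1 library of each group. The 3 libraries of 1 group are still enough to pass the filter. Psmb9, Psmd9 and Psmg3 reached 1 FPKM in 3 NR libraries and 1 Run library, and Psmf1 in 1 NR library and 3 Run libraries. By the unadjusted p, 2 genes lay under 0.05, beside 4.94% of all tested genes (304): Psmc1, with higher values in Run (2.45% of all tested genes), and Psmb9, with lower values (2.49%). That count was 0 without NR replicate 1 or without Run replicate 3, and 1 without NR replicate 2 or without Run replicate 1, which was then neither Psmc1 nor Psmb9. Psmc1 stayed under 0.05 only without NR replicate 3, and Psmb9 only without Run replicate 2. NR and Run values were fully separated in 5 of 43 genes (11.6%), beside 8.95% of all tested genes. Run was above in Psmc1, Psma5 and Psmb7, where the background is 4.76%, and below in Psmb9 and Psmb5, where it is 4.19%. These shares are near the background and are no result about the proteasome.

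Log2 differences were positive in 24 of 43 genes and negative in 19, with a median of 0.14 beside -0.03 over all tested genes, of which 48.9% were positive. Over all 50 genes, without the filter, 26 were positive, 22 negative and 2 were 0, with a median of 0.11. The median changed sign when 1 library was left out, to -0.27 without Run replicate 1 and -0.02 without NR replicate 3. By role, 4 of 7 alpha, 3 of 9 beta, 5 of 6 ATPase, 10 of 14 non-ATPase, 1 of 4 activator and 1 of 3 inhibitor and chaperone genes were positive. A difference of at least 1 in size was seen in 19 of 43 genes, beside 48.7% of all tested genes. Only 2 of these 19 were among the 16 genes found in all 6 libraries, Psma1 (-2.21) and Psmd4 (1.11), and the other 17 were below 1 FPKM in some library. The SE of a difference ranged from 0.48 to 1.40 in those 16 genes, with a median of 0.74, and its median was 1.84 in the other 27. A p that misses the threshold does not show that the groups were alike.

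**Figure D4:**
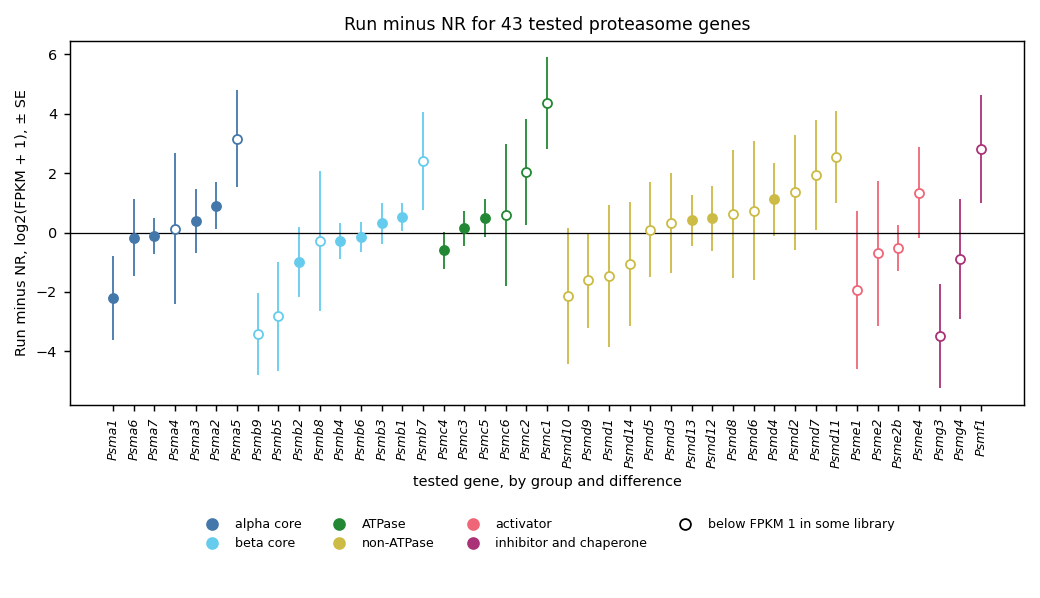
Difference of log2(FPKM + 1), Run minus NR (y axis, points; bars are ± 1 SE from limma) for the 43 tested genes (x axis), coloured by role and sorted within it; open points are genes below 1 FPKM in some library. The filled points run from -2.21 (Psma1) to 1.11 (Psmd4), and the differences furthest from 0, Psmc1 at 4.36 and Psmg3 at -3.48, are open points with long bars.

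The summed level of each part of the complex overlapped between the groups. The alpha genes summed to 1047, 1077 and 825 FPKM in the NR libraries, against 1409, 606 and 958 in the Run libraries, and the beta genes to 1318, 1577 and 1574 in the NR libraries, against 2296, 1177 and 926 in the Run libraries. The Run libraries bracketed the NR libraries in both. The ATPase group, Psmc3ip included, summed to 419, 452 and 598 in the NR libraries, against 479.7, 639 and 897 in the Run libraries, and the non-ATPase genes to 688, 850.1 and 251 in the NR libraries, against 834, 513 and 735 in the Run libraries. The activator genes summed to 120.0, 121 and 201 in the NR libraries, against 101, 0 and 220 in the Run libraries. The ratio of the Run mean to the NR mean was 1.01 for alpha, 0.984 for beta, 1.37 for ATPase, 1.16 for non-ATPase, 0.727 for activator and 1.06 for inhibitor and chaperone genes, and no p is given for these sums. When 1 library was left out, only the ATPase ratio stayed on its side of 1 in each case (1.14 to 1.57). The activator ratio was 1.09 without Run replicate 2 and 0.344 without Run replicate 3, and that of the inhibitor and chaperone genes 0.684 without Run replicate 2. The other ratios ranged from 0.795 to 1.20 for alpha, 0.706 to 1.17 for beta and 0.902 to 1.48 for non-ATPase genes. Relative to the core, the ATPase and non-ATPase genes without Psmc3ip stood at 46.8%, 48.1% and 35.4% of the FPKM in NR and 35.5%, 64.7% and 82.9% in Run. The chaperones Psmd5, Psmd9 and Psmd10 are counted in these shares. Run replicate 1 had the lowest Run share and also the highest core sum of all 6 libraries (3705).

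**Figure D5:**
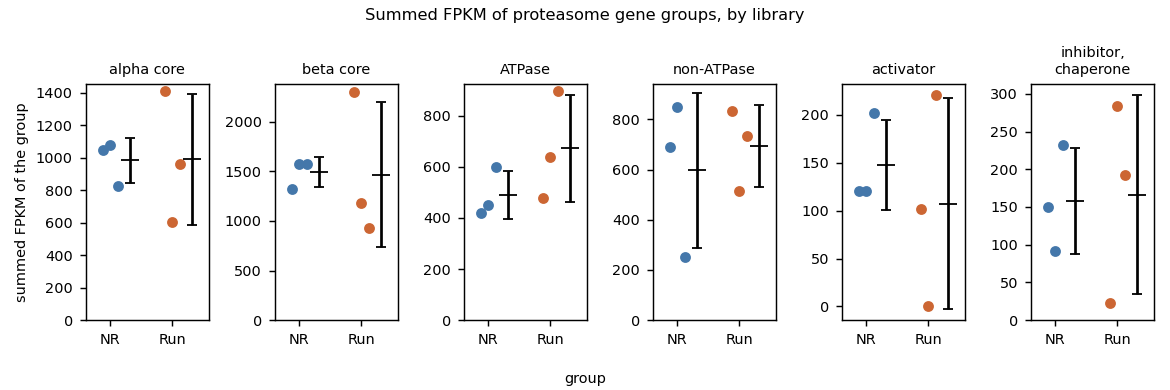
Summed FPKM of each group of proteasome genes (y axis, each panel with its own scale from 0) in the 3 NR (blue) and 3 Run (orange) libraries, with the mean and SD in black. In every panel the points of the groups overlap, and the Run points of the beta genes span 926 to 2296 against 1318 to 1577 in NR.

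Within a library, genes whose proteins sit in the complex in equal number were far from equal in RNA. Among the 14 constitutive core genes the highest value was 1.54 to 4.01 times the median of the library, with 533 FPKM of Psmb6 against a median of 133 in NR replicate 1 and 307 of Psmb2 against a median of 199.97 in NR replicate 2. All 14 were at 1 FPKM or more in NR replicate 2 and Run replicate 1, 13 in NR replicate 3, Run replicate 2 and Run replicate 3, and 12 in NR replicate 1. The ATPase ring was complete, with all 6 genes at 1 FPKM or more, in NR replicate 3, Run replicate 2 and Run replicate 3. Of the 11 structural non-ATPase genes listed here (Psmd1 to Psmd4, Psmd6 to Psmd8 and Psmd11 to Psmd14), 7 to 10 were found per library. No library held all of them.

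Other genes of the ubiquitin system did not pass the test either. Of 54 symbols in 6 lists, 50 were in the table and 33 were tested, 9 with positive and 24 with negative differences, beside 48.9% positive among all tested genes. None of the 33 had an adjusted p under 0.05 by limma and 1 had an unadjusted p under 0.05, beside 4.94% of all tested genes. Ubb, a polyubiquitin gene, was the most abundant and very even, with 1706, 1901 and 1809 FPKM in the NR libraries, against 1481, 1275 and 1799 in the Run libraries (log2 difference -0.26 ± 0.20 SE). Pomp, which helps assemble the core, had 178, 208 and 48.0 in the NR libraries, against 190.2, 67.0 and 58.0 in the Run libraries. The redox protein gene Txnl1, a partner of the regulatory particle, had 67.6, 32.2 and 24.5 in the NR libraries, against 12.8, 13.3 and 0 in the Run libraries, with no overlap and a log2 difference of -2.73 ± 1.41 (SE; unadjusted p = 0.0933 and adjusted p = 0.978 by limma).

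The regulatory particle has a pair of subunits outside the Psm names, and these were picked for that role, not by the rule for named genes. Sem1 had 23.5 to 103 FPKM in NR and 46.4 to 119 in Run. Adrm1, a ubiquitin receptor, exceeded 1 FPKM only in Run replicate 3, at 105. Of the shuttle factors that carry ubiquitinated proteins to the proteasome, Ubqln2 had 13.8, 13.0 and 9.33 in the NR libraries, against 0, 4.38 and 23.3 in the Run libraries. Nsfl1c, a cofactor of the unfolding ATPase Vcp, had 106, 82.4 and 57.4 in the NR libraries, against 153, 20.3 and 56.6 in the Run libraries, and all 5 tested genes of its list had negative differences, from -1.003 to -0.14, where 48.9% of all tested genes were positive. The smallest unadjusted p in that list was 0.594 by limma.

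No transcription factor known to drive proteasome genes was found in all 6 libraries. Nfe2l1 (like Nfe2l2, Mafk, Nfya, Tap1 and Tap2, picked for its role) had 2.82, 26.1 and 0 FPKM in the NR libraries, against 0.878, 22.7 and 0 in the Run libraries. Nfe2l2 had 34.8, 0 and 37.7 in the NR libraries, against 0.0289, 37.2 and 24.0 in the Run libraries, and Mafk, a partner of both, 41.0, 0 and 16.4 against 0, 34.2 and 15.3. Of the CCAAT-binding factor, Nfya was listed at 0 in all 6 libraries, Nfyb had 0.0110, 66.4 and 0 in the NR libraries, against 22.6, 15.6 and 11.3 in the Run libraries, and Nfyc 0, 49.8 and 33.9 in the NR libraries, against 16.4, 84.4 and 0.0348 in the Run libraries. The genes that work with the inducible subunits in antigen presentation were uneven. B2m, the light chain of class I molecules, had 1018, 1779 and 825 in the NR libraries, against 383, 1156 and 843 in the Run libraries. Tapbp, which loads peptides onto class I molecules, had 53.0, 30.3 and 97.9 in the NR libraries, against 0, 32.2 and 0.856 in the Run libraries (log2 difference -3.80 ± 1.58 SE, unadjusted p = 0.0467, adjusted p = 0.978 by limma). Tap1 and Tap2, the peptide transporter genes beside Psmb8 and Psmb9, each exceeded 1 FPKM in 1 library, Tap1 at 5.13 in Run replicate 2 and Tap2 at 38.2 in NR replicate 1.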

How the data were processed

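The authors deposited 1 table of FPKM values per gene symbol and library. Trimmomatic 0.39, STAR 2.7.5c, StringTie 2.1.7, DESeq2, edgeR and build mm10 are named, per the submitters' processing notes; no source used here gives their roles or the annotation. The scale of the test was log2(FPKM + 1), unscaled otherwise; 6155 genes entered, each with at least 1 FPKM in at least 3 libraries, and the tool was limma 3.58.1 (R 4.3.3; mean-variance trend, 2-sided, Benjamini-Hochberg adjustment over all tested genes, threshold 0.05). The scale understates changes of low genes. Python 3.11.15, numpy 2.4.6, pandas 2.3.3 and matplotlib 3.10.9 made the tables and plots. The test was checked on simulated data, where, at the spread of these libraries, it recovered few of the changed genes.

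The members and lists were chosen with earlier results of these data known. Named were the 6 protease subunits, in each role the 2 genes with the highest mean and the 2 tested genes with the smallest p, every gene whose groups do not overlap, and in each pathway list the highest gene and that with the smallest p. One gene that this rule names is not reported here. The labels place all libraries in 1 batch. Columns were matched to libraries by name. Shared sequence was counted in windows of 50 bases over GENCODE M21 transcripts. Alternatives were other pseudocounts, filters and scalings, a replicate block and leaving out each library.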

Additional observations from a re-analysis of the deposited data

How the results depend on the processing

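No proteasome gene or pathway gene passed the adjusted threshold by limma under any of the 13 alternatives (smallest adjusted p for a proteasome gene 0.396), and neither did any other tested gene. The number of proteasome genes with an unadjusted p under 0.05, 2 as reported, was 1 with a pseudocount of 0.1, 1 after quantile normalization, 0 among genes at 1 FPKM or more in all 6 libraries, where fewer genes were tested, and 0 to 2 when a library was left out. The median log2 difference was -0.27 to 0.41 when a library was left out. Among the 23 named and tested proteasome genes, 257 of 278 alternative values kept their direction. The other filters and the replicate block leave a log2 difference unchanged, so the values from them could not reverse and this count overstates the stability. The 21 that reversed all came from leaving out 1 library, in 12 genes, and the cause was not tested. The ranges were -0.44 to 0.24 for Psmb6, -2.33 to 1.62 for Psmb8, -0.49 to 0.56 for Psma7, -0.76 to 1.07 for Psma3, -2.04 to 0.36 for Psmb2, -0.041 to 0.96 for Psmc5, -0.11 to 0.56 for Psmc3, -0.11 to 3.18 for Psmc2, -0.32 to 2.08 for Psmd4, -0.27 to 3.45 for Psmd7, -2.97 to 1.22 for Psme2 and -2.16 to 1.496 for Psmg4.

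The replicate numbers are shared between the groups, but deviations of same-numbered libraries correlated at 0.02, 0.00 and 0.02, so the numbers were not taken to pair them. Each library correlated best with its own number, which is a hint from the data and not the design. With the replicate number as a block, 0 proteasome genes passed the adjusted threshold, and 2 had an unadjusted p under 0.05, where 251 of all tested genes did. These were Psmc1 (unadjusted p = 0.0271 by limma) and Psma1 (unadjusted p = 0.0420 by limma), while Psmb9 had an unadjusted p = 0.0696 by limma. Depth is unknown, and 3 libraries a group with many values listed at 0 limit the precision.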
